A study of Homo sapiens with 6 samples.

Results

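The 38 genes described here encode proteins of the lysosome and of autophagy, and were taken as a list of symbols matched to the Ensembl identifiers of the deposited table. All 38 were found among the 20263 genes of that table, and all 38 passed the filter on low counts that left 12690 genes to test. They fall into 8 roles, with 4 lysosomal membrane proteins, 7 proteases, 8 glycosidases and lipid-handling proteins, 4 parts of the proton pump, 2 TFEB factors, 4 genes of autophagy initiation and nucleation, 4 of the conjugation machinery, and 5 ATG8 proteins and cargo receptors. The RNA came from MV4-11, an established human acute myeloid leukemia line that carries the internal tandem duplication of FLT3, the genotype being entered in the labels as WT. Cells had been kept for 24 h with venetoclax at 100 nM (2 libraries), with CSA at 2.5 µM (2 libraries) or with the combination (2 libraries), whose doses are not listed separately. These doses were taken from the growth protocol, while the treatment entry of every sample names gavage. Venetoclax inhibits the survival protein BCL2, and CSA, written CsA in the growth protocol, is the usual abbreviation of cyclosporine A, a calcineurin inhibitor. Both drugs were present only in the combination, no untreated group was used, and the question asked here is how the 38 genes stood with both drugs against either drug alone. All libraries come from 1 line, the labels do not say that replicates were separate cultures, and the p-values therefore measure the spread between these libraries, which may be technical.

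Lysosomes are acidic compartments in which hydrolases break down proteins, lipids, sugars and nucleic acids, and a proton pump, the V-ATPase, keeps them acidic. In autophagy, a membrane built by the ATG proteins encloses cytoplasm and delivers it to the lysosome, with small ATG8 proteins (the LC3 and GABARAP families) anchored in that membrane and receptors such as p62 linking cargo to them. The related factors TFEB and TFE3 enter the nucleus when the kinase mTORC1 is inactive or when calcineurin dephosphorylates them, and they bind a short palindrome found near the start of many lysosomal genes. In leukemia cells, lysosomes and autophagy are studied for their part in survival under drugs and nutrient loss. Messenger RNA levels alone, as measured here, do not give lysosome number, acidity or autophagic flux.

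Library totals ran from 26567900 to 30738957 counts. Venetoclax replicate 2 stood apart: 41.5% of its counts were from mitochondrially encoded genes, against 7.41% to 15.2% in the other 5 libraries. Replicates differed most with venetoclax, where the log2 differences had an SD over genes of 0.83, against 0.46 in CSA and 0.53 in combination libraries. Of the 38 genes, 28 were lower in venetoclax replicate 2 than in replicate 1 (median log2 difference −0.27), while over all genes the median was 0.00. The difference between those replicates was related to GC content, with r = −0.54 (rho = −0.60) across 12680 genes and r = −0.38 (rho = −0.38) across the 38, and genes are not independent replicates. Counts, medians and fold changes that use venetoclax are therefore given also without venetoclax replicate 2 where that turned the sign or moved the value by over 1.5 times, and for most of the genes given library by library. In such a fit venetoclax replicate 1 is assumed to vary like the other groups. All 10 markers of the monoblastic line, FLT3, CD33 and SPI1 among them, were present, at 2000 to 2153 summed CPM (counts scaled to library size with TMM factors). The 4 T cell markers were at 0 in every library, the summed erythroid and epithelial markers were at most 0.169 and 0.120 CPM, and the summed B cell, NK cell and fibroblast markers were at most 3.49, 17.4 and 1.85 CPM. The 8 markers of macrophage maturation summed to 163 and 186 CPM in the venetoclax libraries, 167 and 165 in the CSA libraries and 194 and 219 in the combination libraries, of which 5 were under 1 CPM in every library and MRC1 was at 0. Of these 8, 5 could be tested, some of them under 1 CPM. With both drugs 4 of the 5 were higher than with CSA (49.7% of all genes), with a median log2 fold change of 0.64. Against venetoclax 4 were higher (49.1% of all genes), with a median of 0.25. By edgeR, 0 had an adjusted p under 0.05 in either comparison. The part of these markers in the results was not tested, and in bulk RNA more lysosome-rich cells and more RNA per cell cannot be told apart.

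The sequence bound by TFEB and TFE3 could be looked up for 31 of the 38 genes in RefSeq promoters (GRCh38.p14, 250 bases before to 50 after each start). The core CACGTG and its longer form TCACGTGA, which contains the core, each read the same on both strands. CACGTG was present in 7 of the 31 (22.6%), against 8.77% of all genes with an entry and 7.26% of all promoters, and TCACGTGA in 5 of the 31 (16.1%), against 1.18% and 0.98%. The 5 genes with the longer form were LAMP1, CTSA, MCOLN1, GAA and ATP6V0D1, and CTSD and NEU1 held the core alone. The upstream stretch of LAMP1 is shown because it holds 5 copies of the core, along with 30 bases around each longer form upstream of the other 4 starts. The longer form is identical in these by selection, and the bases around it differ. The 7 not matched were ATP6V1A, ATP6V1H, CTSB, HEXA, LAMP2, PSAP and UVRAG. Capitals mark CACGTG or TCACGTGA, distances count back from the base before the RefSeq start as −1, and each is written 5′ to 3′ on the gene's own strand.
LAMP1, −222 to −1, chr13:113297017-113297238, + strand: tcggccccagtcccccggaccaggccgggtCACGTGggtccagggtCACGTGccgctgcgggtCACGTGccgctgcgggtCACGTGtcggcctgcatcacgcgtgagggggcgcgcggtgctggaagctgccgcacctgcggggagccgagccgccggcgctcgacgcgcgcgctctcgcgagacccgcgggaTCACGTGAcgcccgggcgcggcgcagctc
CTSA, −37 to −8, chr20:45891298-45891327, + strand: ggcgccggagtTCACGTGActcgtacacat
MCOLN1, −53 to −24, chr19:7522571-7522600, + strand: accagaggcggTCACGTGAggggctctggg
MCOLN1, −26 to 4, chr19:7522598-7522627, + strand: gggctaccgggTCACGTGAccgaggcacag
GAA, −88 to −59, chr17:80101493-80101522, + strand: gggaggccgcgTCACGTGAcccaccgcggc
GAA, −43 to −14, chr17:80101538-80101567, + strand: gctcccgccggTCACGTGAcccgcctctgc
ATP6V0D1, −71 to −42, chr16:67481199-67481228, − strand: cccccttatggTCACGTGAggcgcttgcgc
In the GENCODE 29 annotation the printed sites of CTSA and ATP6V0D1 lie wholly in exons of longer transcripts, and the second stretch of GAA lies partly in one. The second stretch of MCOLN1 runs past the start, and only its last 2 bases are exonic. A match is a description of letters, and binding was not measured.

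With both drugs against venetoclax, most of the 38 genes were slightly higher, but none passed the test. GABARAP, which anchors in the autophagosome membrane, was 1.61-fold higher (log2 fold change 0.68 ± 0.20 SE, n = 2 and 2), and ULK1, the kinase that starts autophagy, 1.43-fold higher (0.51 ± 0.18 SE). The lysosomal membrane protein LAMP1 was 1.23-fold higher (0.30 ± 0.14 SE). Of the 38, 33 had a log2 fold change above 0, a share of 86.8% against 49.1% of all genes tested, and the median was 0.26 against −0.01 over all genes. Both combination libraries lay above both venetoclax libraries for 21 of the 38 (19.2% of all genes did so) and below both for 3 (18.9%), which were MAP1LC3B, ATG5 and UVRAG.

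By edgeR's quasi-likelihood test with Benjamini-Hochberg adjustment, 0 of the 38 and 0 of the 12690 genes (0%) had an adjusted p under 0.05, and the smallest adjusted p among the 38 was 0.365. At an unadjusted p under 0.05 there were 4 of the 38 (10.5%), all higher: GABARAP, WIPI1, ULK1 and ATP6V1H. Of all genes 10.8% reached that level, so the count of the 38 is near the background. DESeq2 called 294 of all genes and limma-voom 0, neither with any of the 38. Without venetoclax replicate 2, 28 of the 38 were above 0 and the median was 0.17, 5 had an unadjusted p under 0.05 (15.5% of all genes did), and 0 of the 38 passed, against 49 of all genes (0.379%). Without venetoclax replicate 1 the median was 0.48. That group was then replicate 2 alone, the library with 41.5% of its counts from mitochondrially encoded genes. The spread in that fit came only from the CSA and combination libraries.

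Against CSA alone, WIPI1, ATP6V1H and GABARAP were the highest of the 38 with both drugs, at 1.52-fold, 1.35-fold and 1.33-fold. The log2 fold change was above 0 for 29 of the 38 (49.7% of all genes), with a median of 0.11 against 0.00 over all genes. Both combination libraries were above both CSA libraries for 17 genes (23.5% of all) and below both for 4 (23.7% of all), namely HEXA, GAA, GUSB and UVRAG. By edgeR, 0 of the 38 and 0 of all genes (0%) passed, the smallest adjusted p among the 38 being 0.9999, and at an unadjusted p under 0.05 there were 0 of the 38 against 3.64% of all genes. DESeq2 called 56 of all genes and limma-voom 1, with 0 of the 38 in each. Leaving out venetoclax replicate 2 gave a median of 0.10. The share of the 38 at an unadjusted p under 0.05 by edgeR was then near that of all genes. The 0 at that level thus depended on venetoclax replicate 2. That library enters this comparison through the shared estimate of spread, the scaling and the filter on low counts. This comparison and the one with venetoclax share the combination libraries.

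For venetoclax against CSA, most of the 38 were lower, with GABARAPL1, PSAP and TFE3 the lowest at log2 fold changes of −0.62, −0.52 and −0.49 (−0.32, −0.17 and −0.27 without venetoclax replicate 2). A total of 8 had a log2 fold change above 0 (49.8% of all genes), and the median was −0.14 against 0.00. Both venetoclax libraries were below both CSA libraries for 15 (19.9% of all) and above for 3 (20.8% of all), which were LAMP2, ATP6V1A and ATG5. By edgeR, 0 of the 38 and 0 of all genes (0%) passed (smallest adjusted p 0.633), with 0 of the 38 and 4.80% of all genes at an unadjusted p under 0.05. DESeq2 called 63 of all genes and limma-voom 0, with 0 of the 38 in each. The median was −0.05 without venetoclax replicate 2, with 12 of the 38 above 0 and 0 at an unadjusted p under 0.05 (4.78% of all genes), and without replicate 1 it was −0.30, with 14 of the 38 passing (36.8%, against 33.8% of all genes), GABARAPL1, PSAP, TFE3 and ULK1 among them.

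**Figure D1:**
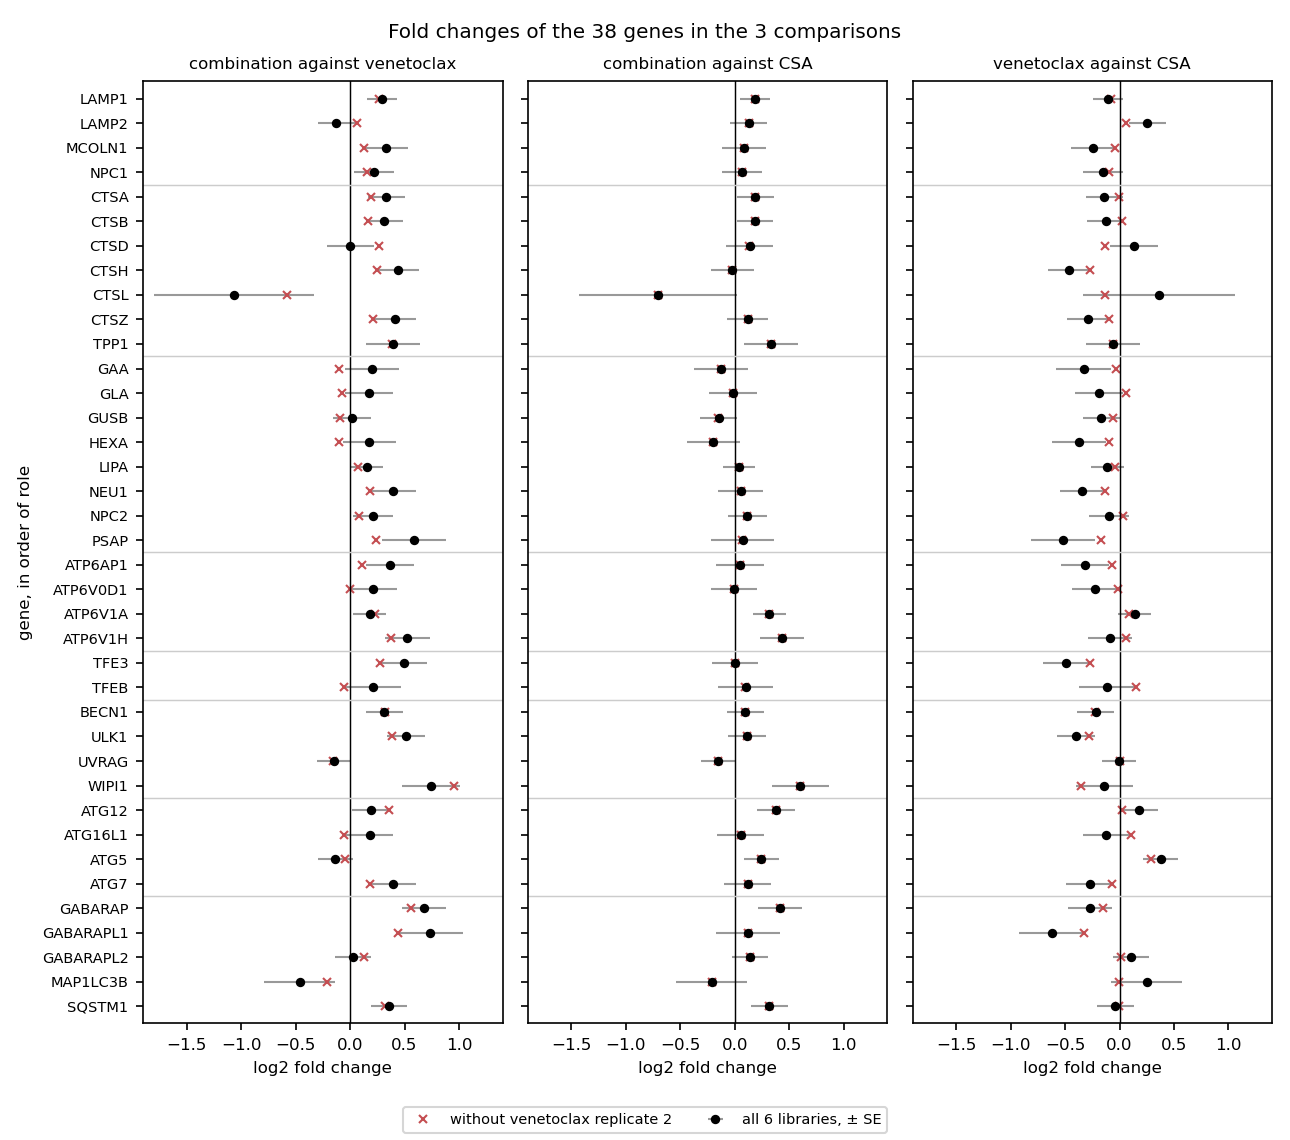
Log2 fold change of each of the 38 genes (rows, in order of role) in the 3 comparisons (panels), as black points with bars of ± 1 SE from the fit of 6 libraries, and red crosses for the fit without venetoclax replicate 2. In the left panel 33 points lie right of 0 and 28 crosses do, while in the right panel 8 points do.

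Taken by library, the middle of the 38 genes was lowest in venetoclax replicate 2 and highest in the combination. The level used was log2(CPM + 0.5) minus the gene's mean over the 6 libraries. Its median over the 38 was −0.02 and −0.31 in the venetoclax libraries, 0.06 and 0.01 in the CSA libraries, and 0.11 and 0.14 in those of the combination. Over all genes the same medians lay between −0.002 and 0.009. The 2 combination libraries were thus above the other 4, and venetoclax replicate 1 was close to the CSA libraries. Gene by gene, both combination libraries were above all 4 others for 12 of the 38 (31.6%), against 10.5% of all genes. These were LAMP1, MCOLN1, CTSA, CTSB, CTSZ, ATP6V1A, ATP6V1H, ATP6AP1, ULK1, WIPI1, GABARAP and SQSTM1, drawn from 5 of the 8 roles. None was from the glycosidases and lipid-handling proteins or the conjugation machinery, and neither TFEB factor was among them.

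**Figure D2:**
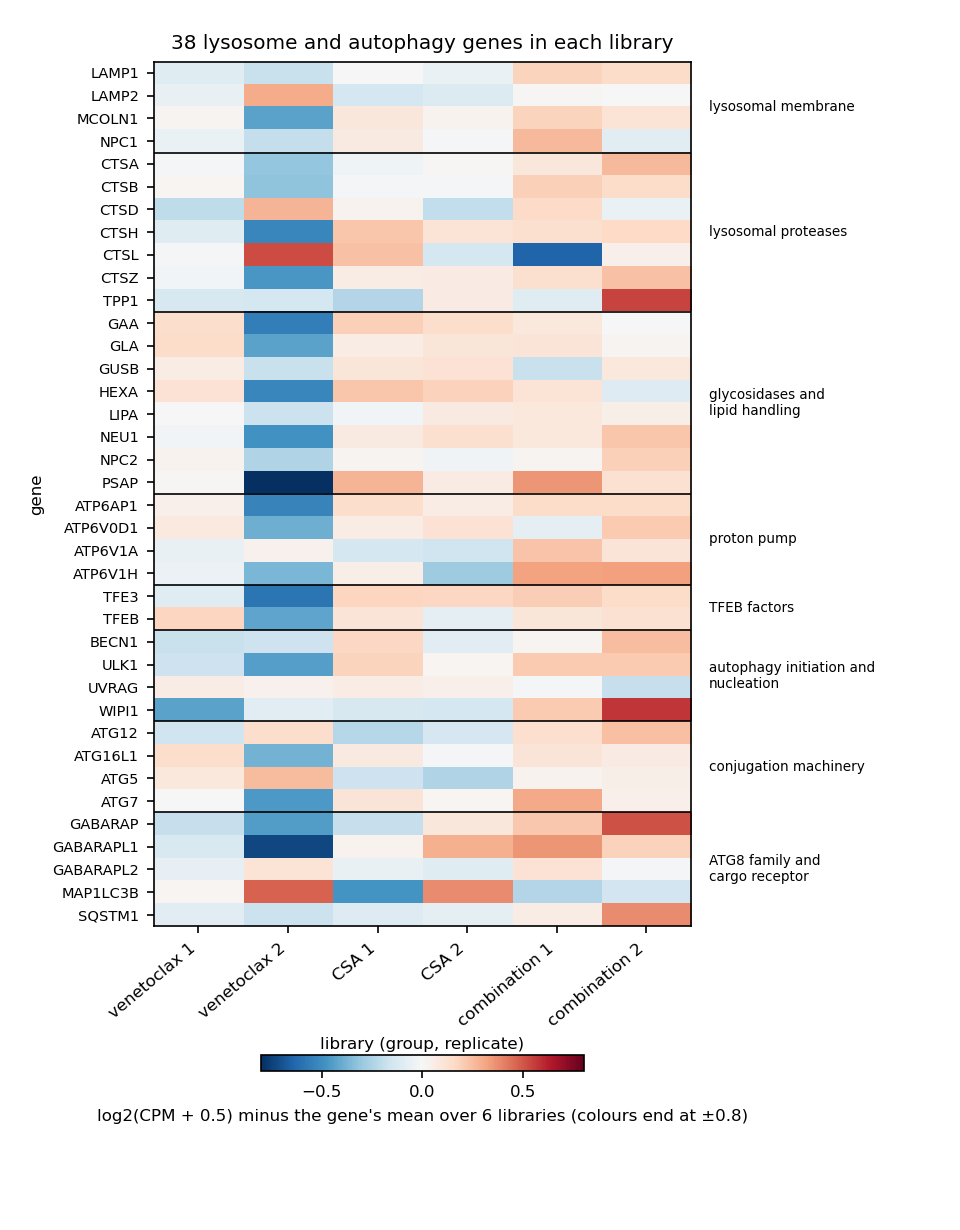
Level of each of the 38 genes (rows, grouped by role) in each of the 6 libraries (columns), as log2(CPM + 0.5) minus the gene's mean over the 6, red above and blue below, with colours ending at ± 0.8. The column of venetoclax replicate 2 is mostly blue (median −0.31), and the combination columns are mostly pale red (medians 0.11 and 0.14).

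Among the lysosomal membrane proteins, LAMP1, a heavily glycosylated protein that lines the lysosome (chr13:113297241-113323672, GRCh38, + strand), was at 205 and 194 CPM under venetoclax, 219 and 212 under CSA and 248 and 243 under both. The 3 groups did not overlap, with the combination highest and venetoclax lowest. LAMP1 had a log2 fold change of 0.30 ± 0.14 SE against venetoclax (edgeR adjusted p = 0.506) and 0.19 ± 0.14 SE against CSA (adjusted p = 0.9999). LAMP2, its relative that also serves chaperone-mediated autophagy, MCOLN1, a lysosomal calcium channel, and NPC1, which exports cholesterol, had log2 fold changes against venetoclax of −0.13, 0.33 and 0.22, and MCOLN1 was at 0.12 without venetoclax replicate 2. LAMP2 was the 1 of these 4 below 0, and its highest value, 289 CPM, was in venetoclax replicate 2. Without that library LAMP2 stood at 0.07, and all 4 were above 0 in both comparisons of the combination.

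Of the 7 proteases, 6 were above 0 against venetoclax. CTSD, an aspartic protease, was at 112 and 156 CPM with venetoclax alone, 132 and 112 with CSA alone, and 144 and 124 with both drugs. These overlap in all 3 comparisons, and the log2 fold change against venetoclax was 0.00 ± 0.22 SE (edgeR adjusted p = 0.997), or 0.27 without venetoclax replicate 2. Exons of a locus annotated on the same strand share 41.7% of CTSD's exon length, so its counts are uncertain. CTSL, a cysteine protease, was hardly detected, at 0.508 and 0.955 CPM under venetoclax, 0.694 and 0.420 under CSA and 0.150 and 0.545 under both. Those values come from 5 to 21 reads a library, they overlap between all groups, and the log2 fold change of −1.07 ± 0.73 SE against venetoclax did not pass (adjusted p = 0.611) and was −0.58 without venetoclax replicate 2. In every library 64.8% to 66.7% of counts from 1 to 20 were even, against 49.0% to 51.0% of counts of 100 or more, so a low count may not stand for as many independent reads. The other 5 proteases were CTSA, a carboxypeptidase that also protects neuraminidase, the cysteine proteases CTSB, CTSH and CTSZ, and TPP1, a tripeptidyl peptidase. They lay between 0.31 and 0.44 against venetoclax, with both combination libraries above both venetoclax libraries for all 5. Without venetoclax replicate 2 they lay between 0.16 and 0.39. For TPP1 the gap was narrow in combination replicate 1, at 187.5 CPM against 183.7 and 181.9 under venetoclax, while combination replicate 2 was at 292.4.

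The 8 glycosidases and lipid-handling proteins had the smallest median log2 fold change of the 8 roles against CSA, at 0.01, with 4 genes above 0 and 4 below. PSAP, the precursor of the saposins that help degrade sphingolipids (chr10:71816298-71851375, GRCh38, − strand), was at 107 and 60.2 CPM with venetoclax alone, 128 and 111 with CSA alone, and 136 and 116 with both drugs. Venetoclax replicate 2 was far below the other 5 libraries, the groups did not overlap against venetoclax and did overlap against CSA. PSAP had a log2 fold change of 0.59 ± 0.29 SE against venetoclax (edgeR adjusted p = 0.524), 0.24 without venetoclax replicate 2, 0.07 against CSA, and −0.52 for venetoclax against CSA, or −0.17 without that library. All 8 were above 0 against venetoclax (median 0.19), but without venetoclax replicate 2 the count was 4 of 8 and the median −0.001. The 4 that were then below 0 were HEXA, GLA, GAA and GUSB, enzymes that remove sugars from glycolipids, glycogen or glycosaminoglycans, at −0.10 to −0.08. NEU1, the neuraminidase, NPC2, which hands cholesterol to NPC1, and LIPA, the acid lipase, had 0.18, 0.09 and 0.08 without that library.

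Parts of the proton pump were higher in both comparisons of the combination for 3 of 4 genes. ATP6V1H, a regulatory subunit of its cytosolic part, was at 36.3 and 28.9 CPM under venetoclax, 38.9 and 30.6 under CSA and 46.9 and 47.1 under both. The combination libraries were above the other 4, which overlapped among themselves. The fitted log2 fold change was 0.53 ± 0.20 SE against venetoclax (edgeR adjusted p = 0.447), 0.38 without venetoclax replicate 2, and 0.44 ± 0.20 SE against CSA (adjusted p = 0.9999). ATP6V1A, the catalytic subunit, and ATP6AP1, an accessory protein, were at 0.18 and 0.37 against venetoclax (0.23 and 0.11 without venetoclax replicate 2) and at 0.32 and 0.05 against CSA. ATP6V0D1, which joins the membrane and cytosolic parts, was at 0.21 and −0.01, and at 0.003 against venetoclax without venetoclax replicate 2.

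TFEB and TFE3, the factors that drive lysosomal genes, differed little between the combination and CSA. TFEB was at 14.1 and 9.18 CPM with venetoclax alone, 13.4 and 11.8 with CSA alone, and 13.4 and 13.6 with both drugs. The low value is venetoclax replicate 2, the groups overlapped in all comparisons, and the log2 fold change of 0.21 ± 0.26 SE against venetoclax (edgeR adjusted p = 0.761) was −0.06 without that library. TFE3 (chrX:49028726-49043486, GRCh38, − strand) was at 33.5 and 23.7 CPM under venetoclax, 40.32 and 40.31 under CSA and 41.1 and 39.7 under both. Both venetoclax libraries lay below the other 4, which were close together. On the log2 scale TFE3 differed by 0.50 ± 0.21 SE against venetoclax (adjusted p = 0.475), 0.00 ± 0.21 SE against CSA, and −0.49 ± 0.21 SE for venetoclax against CSA (adjusted p = 0.633). Without venetoclax replicate 2 the first and last were 0.27 and −0.27. Both factors act through their place in the cell as well as their amount, and that was not measured.

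The 7 genes with CACGTG near their start had medians close to those of the 24 others with a promoter entry. Against venetoclax all 7 were above 0, from CTSD at 0.00 and GAA at 0.20 to NEU1 at 0.40, with a median of 0.30 against 0.27 for the 24. With venetoclax replicate 2 left out, these medians became 0.18 and 0.17, and 6 of the 7 were above 0, with GAA at −0.10. Against CSA the medians were 0.08 and 0.11 in the fit of 6 libraries. LAMP1, CTSA and MCOLN1 had both combination libraries above all 4 others, while GAA and ATP6V0D1, whose printed sites hold the same 8 letters, did not. No test of this difference was made, since the split has few genes and rests on letters alone.

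Of the 4 genes with an unadjusted p under 0.05 against venetoclax (edgeR), 2 were in autophagy initiation and nucleation. Those 4 were 10.5% of the 38, near the 10.8% of all genes. ULK1 (chr12:131894651-131923167, GRCh38, + strand) was at 34.6 and 28.5 CPM with venetoclax alone, 44.2 and 39.3 with CSA alone, and 45.04 and 45.03 with both drugs. The combination was highest and the venetoclax libraries lowest, with no overlap among the 3 groups. Its log2 fold change against venetoclax was 0.51 ± 0.18 SE (edgeR adjusted p = 0.416) and 0.38 without venetoclax replicate 2, and it was 0.11 ± 0.18 SE against CSA and −0.40 for venetoclax against CSA (−0.28 without that library). WIPI1, which reads the lipid signal on the forming autophagosome (chr17:68420948-68457513, GRCh38, − strand), was low, at 2.61 and 3.45 CPM under venetoclax, 3.34 and 3.30 under CSA and 4.35 and 5.74 under both. The combination libraries were above the other 4, which overlapped. WIPI1 had a log2 fold change of 0.74 ± 0.26 SE against venetoclax (adjusted p = 0.420), 0.95 without venetoclax replicate 2, and 0.60 ± 0.26 SE against CSA (adjusted p = 0.9999), the largest of the 38 in that comparison. Genes on the opposite strand, ARSG among them, share 28.1% of WIPI1's exon length, and the strand setting of the counting is not stated.

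BECN1, a core subunit of the lipid kinase complex that nucleates autophagosomes, was at 66.1 and 66.6 CPM with venetoclax alone, 83.9 and 70.5 with CSA alone, and 75.9 and 89.1 with both drugs. Both venetoclax libraries were below the other 4, and CSA and the combination overlapped. BECN1 had a log2 fold change of 0.31 ± 0.17 SE against venetoclax (edgeR adjusted p = 0.546), 0.32 without venetoclax replicate 2, and 0.10 ± 0.17 SE against CSA. UVRAG, a partner of BECN1 in that complex, was the member below 0 in all 3 comparisons, at −0.15 against venetoclax, −0.15 against CSA and −0.004 for venetoclax against CSA, the last turning to 0.004 without venetoclax replicate 2. Of the conjugation machinery, which attaches ATG8 proteins to lipid, ATG7, its activating enzyme, ATG12, a ubiquitin-like protein, and ATG16L1, which places the complex on the membrane, were at 0.39, 0.19 and 0.18 against venetoclax. ATG5, the protein ATG12 is joined to, was at −0.14. Leaving out venetoclax replicate 2 put ATG7 at 0.18, ATG12 at 0.36, ATG16L1 at −0.05 and ATG5 at −0.04 against venetoclax. Against CSA all 4 were above 0, from 0.05 to 0.38, ATG12 being highest.

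The ATG8 proteins differed in direction. GABARAP (chr17:7240014-7242770, GRCh38, − strand) was at 51.2 and 42.6 CPM under venetoclax, 51.1 and 62.1 under CSA and 67.7 and 83.0 under both. The combination libraries were above the other 4, which overlapped. Its log2 fold change was 0.68 ± 0.20 SE against venetoclax (edgeR adjusted p = 0.365), 0.56 without venetoclax replicate 2, and 0.41 ± 0.20 SE against CSA (adjusted p = 0.9999). Exons of other loci share 30.5% of GABARAP's exon length on the same strand and 25.2% on the opposite strand, so its counts are uncertain.

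GABARAPL1, a close relative of GABARAP, was low, at 3.73 and 2.28 CPM with venetoclax alone, 4.20 and 5.10 with CSA alone, and 5.37 and 4.73 with both drugs. The venetoclax libraries were below the other 4, and CSA and the combination overlapped. The log2 fold change was 0.74 ± 0.30 SE against venetoclax (edgeR adjusted p = 0.463), 0.44 without venetoclax replicate 2, 0.12 ± 0.29 SE against CSA and −0.62 for venetoclax against CSA (−0.32 without that library). MAP1LC3B, the LC3 protein used as a marker of autophagosomes, was at 31.6 and 43.4 CPM under venetoclax, 22.2 and 40.8 under CSA and 26.4 and 28.0 under both. The combination lay below venetoclax without overlap, and the CSA libraries spanned the combination. MAP1LC3B had a log2 fold change of −0.46 ± 0.33 SE against venetoclax (adjusted p = 0.623), −0.21 without venetoclax replicate 2, and −0.21 ± 0.33 SE against CSA. The near-identical MAP1LC3B2 had at most 7 reads in a library, and reads shared by such copies could be assigned to either. GABARAPL2, also a relative, was at 0.03 against venetoclax (0.13 without venetoclax replicate 2) and 0.14 against CSA.

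SQSTM1, which encodes the cargo receptor p62, was at 149 and 140.2 CPM with venetoclax alone, 147 and 149.9 with CSA alone, and 164 and 205 with both drugs. The combination libraries were above the other 4, which overlapped, and combination replicate 2 was highest. SQSTM1 had a log2 fold change of 0.36 ± 0.17 SE against venetoclax (edgeR adjusted p = 0.507), 0.32 without venetoclax replicate 2, and 0.32 ± 0.17 SE against CSA (adjusted p = 0.9999). Genes on the opposite strand share 22.0% of its exon length. In all, 20 of the 38 genes share no exon with another gene in the annotation, and their median against venetoclax was 0.26, or 0.12 without venetoclax replicate 2.

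**Figure D3:**
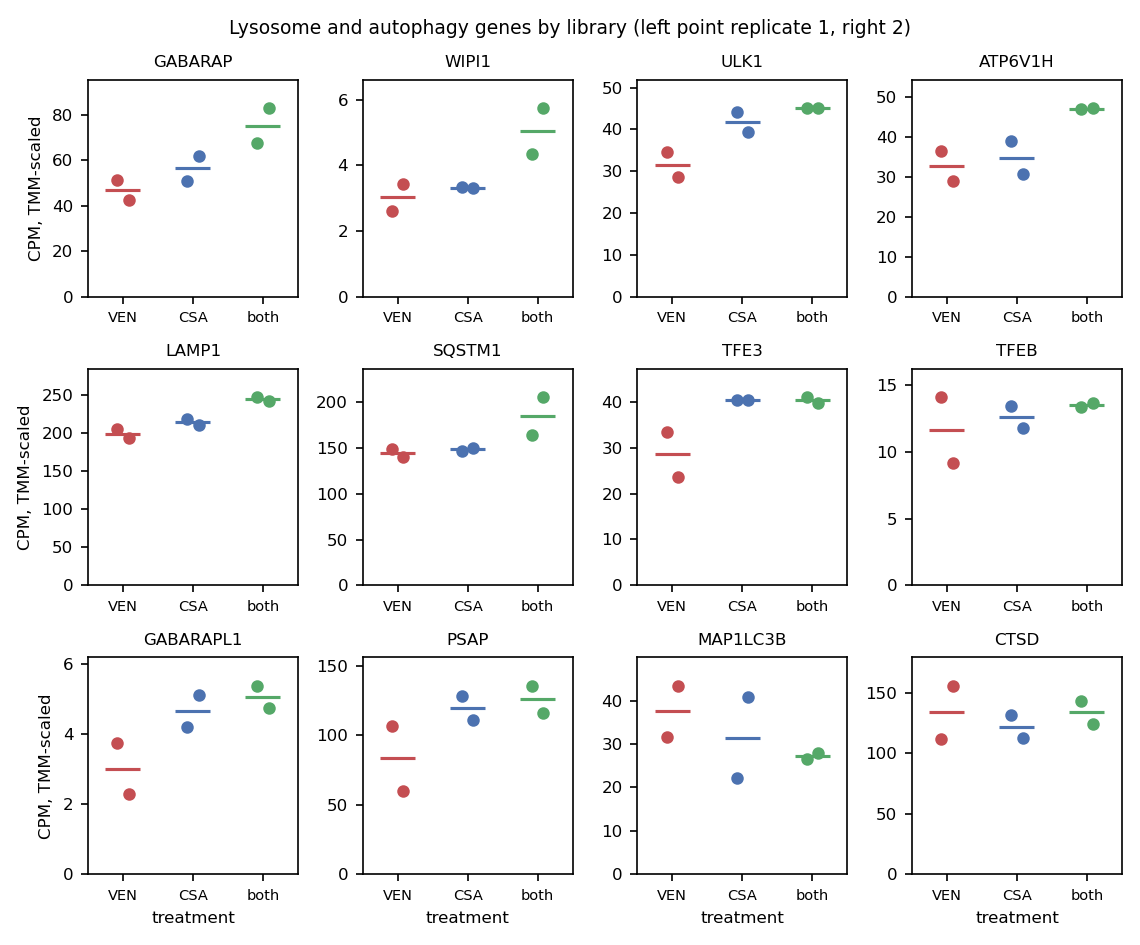
TMM-scaled CPM of 12 of the genes in each library, with a panel for each gene, an axis from 0, venetoclax (VEN) red, CSA blue and the combination (both) green, the left point of a pair being replicate 1, and lines at group means. GABARAP, WIPI1, ULK1, ATP6V1H, LAMP1 and SQSTM1 have both combination points above the other 4, and TFEB, PSAP and TFE3 have their lowest point in venetoclax replicate 2.

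Per kilobase of exon, the 38 genes spanned a wide range of levels, from CTSL at 0.230 CPM per kb, GABARAPL1 at 1.04, WIPI1 at 1.12 and TFEB at 2.23 to LAMP1 at 38.4, CTSD at 41.5, LAMP2 at 42.7 and CTSZ at 96.9 (means over 6 libraries). By this measure, which divides by the length of all annotated exons, the proteases held both the least and the most abundant of the 38. In mean CPM, LAMP2 (236) and LAMP1 (220) were above CTSZ (198). Within the ATG8 proteins GABARAP was at 26.3 CPM per kb, GABARAPL2 at 9.23, MAP1LC3B at 6.04 and GABARAPL1 at 1.04.

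By role, the median level by library showed where venetoclax replicate 2 entered. In that library the median was −0.46 for the glycosidases and lipid-handling proteins, −0.50 for the TFEB factors and −0.38 for the proton pump, against −0.12 for the conjugation machinery and −0.13 for initiation and nucleation. For the latter the other venetoclax library was as low, at −0.17. The combination libraries had the 2 highest medians for the membrane proteins, the proteases, the proton pump, initiation and nucleation, the conjugation machinery, and the ATG8 proteins and receptor, whereas for the glycosidases and lipid-handling proteins CSA replicate 2 was highest, at 0.11. The gap between the combination and the next library was widest for the proton pump, at 0.19 and 0.18 against 0.05.

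**Figure D4:**
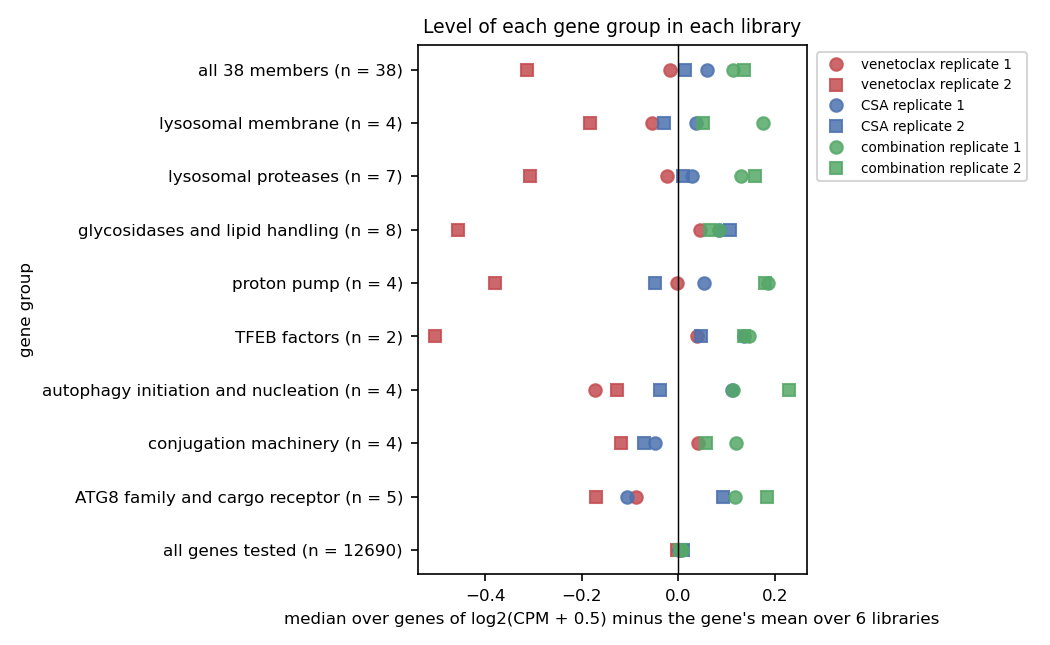
Median over the genes of each role (rows) of log2(CPM + 0.5) minus the gene's mean over 6 libraries, with colour for treatment, circles for replicate 1 and squares for replicate 2. Venetoclax replicate 2 is at −0.31 over the 38 genes and the combination at 0.11 and 0.14, while all genes tested sit near 0.

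Other genes of the pathway, 131 in 9 further lists, were measured in the same way, and 124 could be tested. Against venetoclax 81 were above 0 (65.3%, against 49.1% of all genes) and 43 below, with a median of 0.13. At an unadjusted p under 0.05 there were 15 above and 3 below, 14.5% of the 124 against 10.8% of all genes, and 0 adjusted calls by edgeR. Without venetoclax replicate 2 the counts were 79 and 45 (median 0.12), with 18 and 5 at an unadjusted p under 0.05 (18.5%, against 15.5% of all genes) and 1 adjusted call, CCPG1 (0.379% of all genes were called). Against CSA 77 were above 0 (62.1%, against 49.7%) and 47 below (median 0.08), with 5 and 2 at an unadjusted p under 0.05 (5.65%, against 3.64%), and 14 and 6 (16.1%, against 12.0%) without venetoclax replicate 2. For venetoclax against CSA 49 were above 0 (39.5%, against 49.8%) and 75 below (median −0.09, or −0.04 without venetoclax replicate 2), with 2 and 5 (5.65%, against 4.80%), and 3 and 10 (10.5%, against 4.78%) without venetoclax replicate 2. In both of these edgeR made 0 adjusted calls among the 124.

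Of the 28 other hydrolases tested, 24 were above 0 against venetoclax (median 0.22) and 22 against CSA (0.13). Of the 15 other membrane proteins the counts were 10 (0.17) and 11 (0.15), and of the 13 other proton pump subunits 8 (0.14) and 12 (0.16). These 3 lists, without venetoclax replicate 2, had 22, 11 and 9 genes above 0 against venetoclax, with medians of 0.21, 0.22 and 0.13. In all 6 further lists that library turned the sign of the median against venetoclax or moved it by over 1.5 times. The MiT factors with the Rag-Ragulator-folliculin genes had 7 of 13 above 0 (median 0.05) with it and 4 of 13 (−0.07) without it, and the other genes of autophagy initiation and nucleation 7 of 13 (0.02) and 5 of 13 (−0.04). The other ATG8 proteins and cargo receptors had 5 of 11 above 0 (−0.004) with it and 8 of 11 (0.20) without it. For mannose 6-phosphate sorting 5 of 6 were above 0 either way, with medians of 0.31 and 0.08, and for autophagosome-lysosome fusion 9 of 13 (0.17) and 8 of 13 (0.08). Autophagosome growth and conjugation had 6 of 12 (0.01) and 7 of 12 (0.07).

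DNASE2, the acid DNase of the lysosome, had the largest fold change of the genes named from these lists. It was at 2.54 and 2.07 CPM under venetoclax, 4.26 and 5.07 under CSA and 8.34 and 7.997 under both. Genes of these lists were named only where the groups compared did not overlap, so the separation of its 3 groups was set by that choice. DNASE2 had a log2 fold change of 1.82 ± 0.23 SE against venetoclax (edgeR adjusted p = 0.108, DESeq2 adjusted p = 1.545e-05), 1.69 without venetoclax replicate 2, 0.81 ± 0.22 SE against CSA (edgeR adjusted p = 0.9999) and −1.01 ± 0.23 SE for venetoclax against CSA. Among other hydrolases, AGA, which cleaves glycoprotein linkages, IDUA, an iduronidase, and ASAH1, the acid ceramidase, were at 0.84, 0.69 and 0.56 against venetoclax, and ASAH1 was at 0.54 against CSA. The 3 were, without venetoclax replicate 2, at 0.94, 0.69 and 0.80 against venetoclax. NAGLU, a glucosaminidase, was at −0.97 for venetoclax against CSA, and AGA at −0.57, or −0.68 and −0.67 without venetoclax replicate 2.

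CTNS, the cystine exporter of the lysosome, was at 16.7 and 15.9 CPM with venetoclax alone, 23.8 and 25.7 with CSA alone, and 26.7 and 28.2 with both drugs. Its log2 fold change was 0.75 ± 0.17 SE against venetoclax (edgeR adjusted p = 0.256, DESeq2 adjusted p = 0.025) and −0.60 for venetoclax against CSA, or 0.72 and −0.57 without venetoclax replicate 2. CD63, a tetraspanin, and TMEM175, a lysosomal ion channel, were at 0.69 and 0.62 against venetoclax, and at 0.40 and 0.44 without that library. In the proton pump, ATP6V0A1 was at 0.62 against venetoclax and at 0.81 without it. ATP6V0C, which forms the proton-carrying ring, was at 148 and 251 CPM under venetoclax, 75.6 and 92.4 under CSA and 143 and 137 under both. Both CSA libraries were below the other 4, which the rule for naming it required. Its log2 fold change was 1.25 ± 0.28 SE for venetoclax against CSA (edgeR adjusted p = 0.633, DESeq2 adjusted p = 0.0188), or 0.81 without venetoclax replicate 2. For the combination against CSA it was 0.74 ± 0.28 SE. GNPTAB, which makes the mannose 6-phosphate tag, was at −0.62 against venetoclax, and LAMTOR2, a Ragulator subunit, at −0.81 for venetoclax against CSA, or −0.39 and −0.69 without venetoclax replicate 2.

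Selective autophagy receptors lay in both directions. BNIP3L, a receptor for mitochondria, was at 90.4 and 113 CPM with venetoclax alone, 74.0 and 74.5 with CSA alone, and 52.0 and 52.6 with both drugs. The 3 groups did not overlap, which the rule for naming it required. Its log2 fold change was −0.96 ± 0.17 SE against venetoclax (edgeR adjusted p = 0.188, DESeq2 adjusted p = 0.00117), −0.51 ± 0.17 SE against CSA and 0.46 for venetoclax against CSA. Without venetoclax replicate 2 the first and last were −0.79 and 0.28. CCPG1, a receptor for the endoplasmic reticulum, was at 49.6 and 81.7 CPM under venetoclax, 77.2 and 69.6 under CSA and 116 and 115 under both. Its log2 fold change was 0.82 ± 0.26 SE against venetoclax (edgeR adjusted p = 0.390), 1.23 without venetoclax replicate 2 (edgeR adjusted p = 0.0491), and 0.65 ± 0.26 SE against CSA. RETREG1, another receptor for the endoplasmic reticulum, was at 0.85 against venetoclax, or 1.11 without venetoclax replicate 2. WDR45, of the same family as WIPI1, and TECPR1, which acts in fusion with lysosomes, were at 0.54 and 0.85, or 0.42 and 0.48 without that library.

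**Figure D5:**
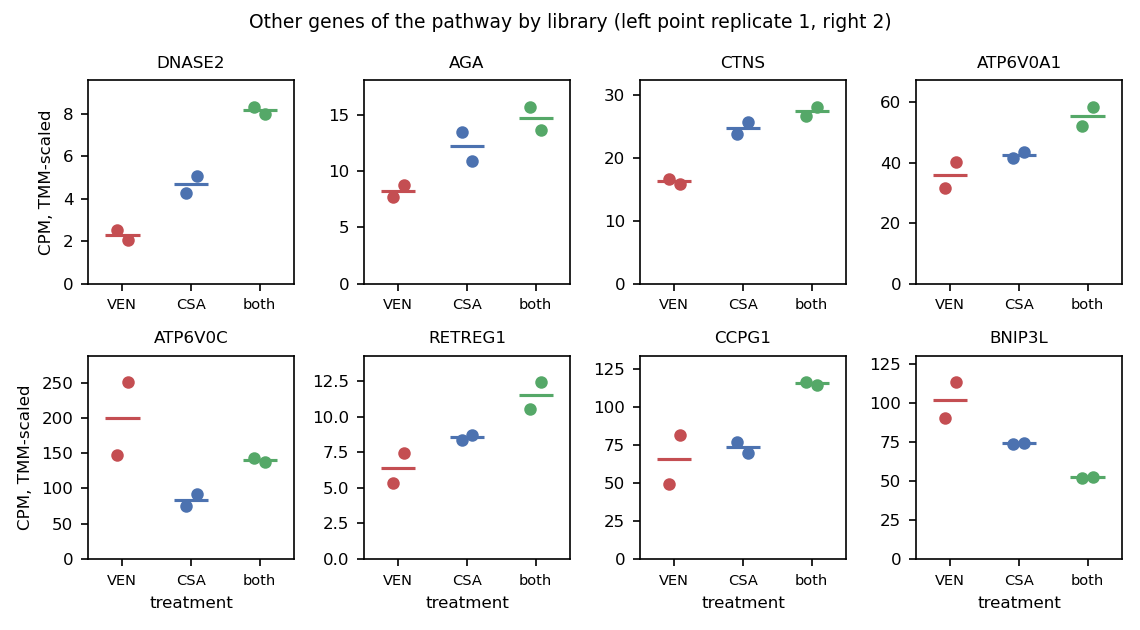
TMM-scaled CPM of 8 other genes of the pathway in each library, with a panel for each gene, an axis from 0, venetoclax (VEN) red, CSA blue and the combination (both) green, the left point of a pair being replicate 1, and lines at group means. DNASE2 is highest with the combination (8.34 and 7.997), BNIP3L lowest with it (52.0 and 52.6), and ATP6V0C lowest with CSA (75.6 and 92.4).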

How the data were processed

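Total RNA of 6 libraries was prepared with the KAPA RNA HyperPrep kit and read as pairs of 150 bp, per the labels' protocols. STAR, RSEM and DESeq2 were used with hg38, per the submitters' processing notes; their roles and versions, the annotation and the strand setting are not stated. Each deposited value is a count, a whole number for a gene, with no normalization by the authors. The table also holds 2 columns without a label, which were left out. Symbols came from a table of Ensembl names (20148 of 20263 genes matched), and exon lengths, coordinates and GC content from GENCODE 29 (20224 matched). The 38 members, the other lists and the tests were chosen with earlier results of these data known.

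The counts as deposited were tested in 1 fit of all 6 libraries, 3 groups of 2, with edgeR 4.0.16 (R 4.3.3): TMM scaling, filterByExpr by group, robust quasi-likelihood F-tests, 2-sided, with Benjamini-Hochberg adjustment over 12690 genes and a threshold of 0.05. That fit leaves 3 residual degrees of freedom. The SE is the size of the log2 fold change divided by the root of F. The scripts were tested on simulated data. CPM values use TMM-scaled library sizes and cover counting and library spread only through n = 2. Values per library are given for members with an unadjusted p under 0.05 or a log2 fold change of at least 0.5 in size in any comparison, and always for TFEB, TFE3, LAMP1, CTSD, SQSTM1, MAP1LC3B, ULK1 and BECN1. From each other list, up to 3 genes per comparison were named, those with the smallest unadjusted p under 0.05, no overlap between groups and a mean of at least 5 CPM. The alternatives were DESeq2 1.42.0, limma-voom (limma 3.58.1), other scalings and filters, GC correction, removal of mitochondrially encoded genes, the 4 libraries compared alone, a replicate block, and leaving out each library.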

Additional observations from a re-analysis of the deposited data

How the results depend on the processing

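With 2 libraries a group, leaving out a venetoclax library could change the genes called by edgeR, while leaving out a CSA or combination library did not. Over those refits the genes called ranged from 0 to 3426 for the combination against venetoclax, from 0 to 24 against CSA and from 0 to 4385 for venetoclax against CSA, and the members called from 0 to 17 and from 0 to 14 in the first and the last. The members' median ranged from 0.173 to 0.478 and from −0.295 to −0.049 in those 2, the outer values being without venetoclax replicate 1 and the inner without replicate 2. The highest counts in those 2 comparisons also came from the fit without venetoclax replicate 1, where that group was replicate 2 alone. In the order above, genes called were 294, 56 and 63 by DESeq2, 448, 227 and 100 by DESeq2 without venetoclax replicate 2, and 15, 4 and 2 with no filter on low counts. GC correction gave 39 against venetoclax, and against CSA limma-voom gave 1 and the 4 libraries compared alone 24. With library size alone, the members' median was 0.523 against venetoclax and −0.427 for venetoclax against CSA, where the medians of all genes were 0.26 and −0.31. Members called stayed at 0 in all comparisons under each alternative that kept venetoclax replicate 1. Removing mitochondrially encoded genes left the median against venetoclax at 0.261, and GC correction gave 0.212. Small values changed sign. Against venetoclax, CTSD was −0.329 with GC correction and between −0.217 and 0.267 with a library left out, and TFEB was −0.0618 by DESeq2 without venetoclax replicate 2 and between −0.0576 and 0.558 with a library left out. Against CSA, TFE3 was −0.0391 with library size alone and −0.000325 by DESeq2 without venetoclax replicate 2. With a library left out, TFE3 lay between −0.0239 and 0.0282, PSAP between −0.0476 and 0.182, MAP1LC3B between −0.584 and 0.291, GABARAPL1 between −0.0158 and 0.265, and BECN1 between −0.0263 and 0.226. The cause was not tested. The labels do not say that replicate numbers pair libraries. With a replicate block 0 genes passed in each comparison and the medians were 0.268, 0.106 and −0.146, and same-numbered libraries deviated together with r from 0.164 to 0.252.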
